A study of Homo sapiens with 6 samples.

Results

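Integrins are membrane receptors built from an alpha and a beta chain, which pair in the endoplasmic reticulum before they reach the surface and bind matrix proteins outside the cell and talin, kindlin and the actin cytoskeleton inside it. The alpha chain largely sets the ligand, and several alpha chains compete for the same beta chain, above all ITGB1. In epithelial and carcinoma cells the laminin, collagen and fibronectin receptors of this family carry adhesion to basement membrane and migration. The 10 integrin genes described here were chosen by name, as the subunits ITGA1, ITGA2, ITGA3, ITGA4, ITGA5, ITGA6, ITGAV, ITGB1, ITGB3 and ITGB5. All 10 were found among the 22004 genes of the deposited count table, and all 10 were among the 16330 genes that passed the filter on low counts.

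The data are poly(A) RNA-seq libraries of H1299 cells, an established human non-small cell lung cancer line labelled wild type and epithelial-like, after 48 h in 1.5 µM AVJ16 or in the solvent DMSO. AVJ16 is described by the study as a small-molecule inhibitor of IGF2BP1, which binds mRNAs and stabilises them. Each group held 3 libraries, D, E and F for AVJ16 and A, B and C for DMSO, with 19353830 to 30253721 counts. The labels give no letters, so the letters were put in their groups from the condition bar of the heat map in the study, and every direction given here rests on that assignment. The comparison addressed which mRNAs differ in level between treated and control cells of this 1 line, and the methods speak of triplicates and biological repeats while the labels do not name separate cultures, so p-values measure the spread between these samples, which may be technical.

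The cells carried the mesenchymal marker VIM at 7436 to 7571 CPM in AVJ16 (read counts scaled to library size by TMM), against 5362 to 6221 CPM in DMSO (log2 fold change 0.39, adjusted p = 0.0564). The simple-epithelium keratin KRT18 had 406 to 655 CPM in AVJ16 and 449.8 to 518 CPM in DMSO. The epithelial markers EPCAM, CDH1, KRT8, KRT18 and KRT19 summed to 728 to 1091 CPM in AVJ16 and 741 to 853 CPM in DMSO. Of these, EPCAM was near 0, at a mean of 0.471 CPM in AVJ16 and 0.432 CPM in DMSO. CDH1 was low too, at 0.234 CPM in AVJ16 and 1.45 CPM in DMSO (log2 fold change -2.53, adjusted p = 0.00571). It had 4, 2 and 13 counts in D, E and F. The 4 fibroblast markers summed to 3.15 to 4.57 CPM in AVJ16 and 5.41 to 7.13 CPM in DMSO, and 1 of the 3 tested was called lower. Leukocyte markers summed to 1.01 to 1.79 CPM in AVJ16 and 0.83 to 1.50 CPM in DMSO. The part of these markers in the results below was not tested. IGF2BP1 itself had 240, 239 and 260 CPM in AVJ16, against 266, 267 and 264 CPM in DMSO (log2 fold change -0.11, SE 0.09, adjusted p = 0.440). Among the AVJ16 libraries, D differed from E and F. The main principal component of the 500 most variable genes held 66.1% of the variance and separated the groups, and the next held 17.0% and separated D from E and F. Mitochondrially encoded mRNAs took 11.9% of the counts in D, 6.42% in E and 5.13% in F, against 5.37% to 6.66% in DMSO. Values without D are given beside the members and beside the lists of partners below.

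The upstream sequences of the members on which the results turn are shown for orientation, since no binding was measured here. RefSeq windows on GRCh38.p14 were at hand for 8 of the 10 members, and ITGA3 and ITGB3 were not among them. Each of the 3 genes shown has 2 such windows, at separate starts. The runs below are the longest stretch free of annotated exons within the 250 bases before the more upstream start, read on the strand of the gene, for ITGA6 (chr2:172427086-172427335, plus strand), ITGAV (chr2:186589806-186590009, plus strand) and ITGB1 (chr10:32958326-32958436, minus strand). Capitals mark the matches to 4 motifs searched on both strands, the GC box GGGCGG, the AP-1 motif TGANTCA, the TEAD motif GGAATG and the E-box CACGTG.
ITGA6: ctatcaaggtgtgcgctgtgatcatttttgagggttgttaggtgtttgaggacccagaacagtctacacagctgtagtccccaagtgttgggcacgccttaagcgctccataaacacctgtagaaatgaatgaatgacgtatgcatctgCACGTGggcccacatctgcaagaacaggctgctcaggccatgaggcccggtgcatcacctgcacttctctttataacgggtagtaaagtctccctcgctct
ITGAV: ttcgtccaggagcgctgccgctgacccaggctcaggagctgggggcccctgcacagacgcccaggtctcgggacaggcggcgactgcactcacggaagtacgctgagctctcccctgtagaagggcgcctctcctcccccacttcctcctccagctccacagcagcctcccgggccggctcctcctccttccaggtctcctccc
ITGB1: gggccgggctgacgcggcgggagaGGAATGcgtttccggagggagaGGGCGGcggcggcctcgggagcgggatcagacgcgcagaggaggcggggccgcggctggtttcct

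The ITGA6 run of 250 bases held 1 E-box, which 6.35% of all 35116 RefSeq windows also hold at this length. The ITGAV run of 204 bases held no match to the 4 motifs. The ITGB1 run of 111 bases held 1 GC box and 1 TEAD motif, against 22.7% and 5.46% of all windows read over the same interval. None of the matches shown overlap each other. The run of the other start of ITGA6, 115 bases long, held 2 GC boxes, against 33.4% of all windows with a match over that interval, and the 250-base runs of the other starts of ITGAV and ITGB1 held no match. The GC content was 50.8% for ITGA6, 69.1% for ITGAV and 75.7% for ITGB1.

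AVJ16 cells had more ITGA6 mRNA and less ITGAV mRNA than DMSO cells, and the other 8 members did not pass the test. Beside these counts, 14.4% of all genes tested were called by edgeR's quasi-likelihood test at a Benjamini-Hochberg adjusted p of 0.05, 5.79% higher and 8.66% lower in AVJ16, so 2 calls among 10 members is close to the background. The ranges of AVJ16 and DMSO did not overlap for 4 members, of which ITGA6 and ITGA4 were higher in AVJ16 and ITGAV and ITGB5 were lower. Over all genes tested the groups did not overlap for 37.1%, with 16.5% higher and 20.6% lower. The fold change was above 0 on the log2 scale for 5 members and below 0 for 5, with a median of -0.03 against -0.01 over all genes tested. The subunits therefore did not move as 1 block, and fewer cells of a kind and less RNA per cell cannot be told apart in bulk samples.

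**Figure D1:**
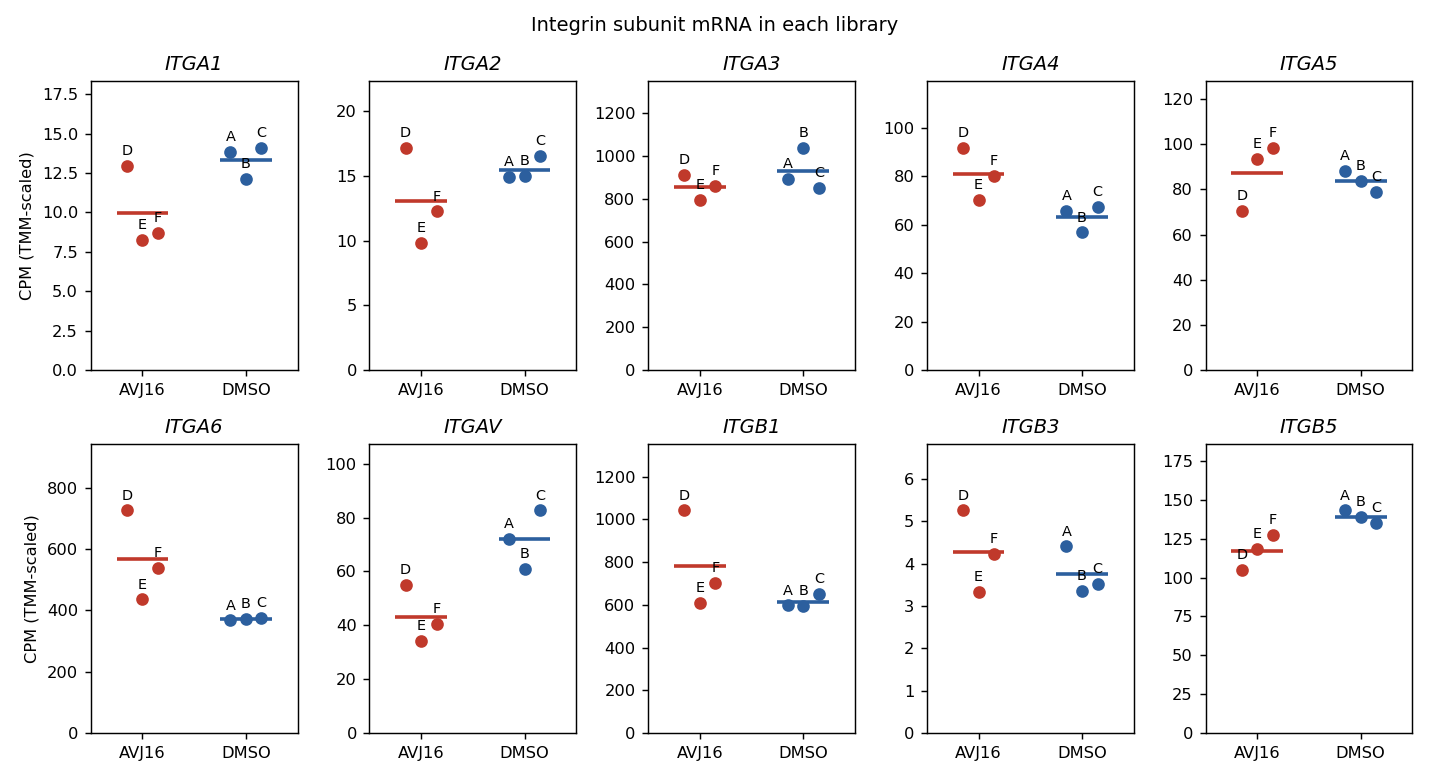
Level of each of the 10 integrin subunit mRNAs in each library, in TMM-scaled CPM on an axis from 0, with AVJ16 libraries D, E and F on the left and DMSO libraries A, B and C on the right of each panel. Points are libraries and lines are group means. ITGA6, at 435 to 725 CPM in AVJ16 against 367 to 375 CPM in DMSO, and ITGAV, at 34.2 to 54.8 CPM against 61.0 to 82.6 CPM, were the members that passed the test.

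The laminin receptors were the most abundant alpha chains. ITGA6 (ENSG00000091409, chromosome 2, 172427354 to 172506459, plus strand, GRCh38), the alpha chain of laminin receptors that pairs with ITGB1 or ITGB4, had 725, 435 and 539 CPM in AVJ16 libraries D, E and F, against 367, 373 and 375 CPM in DMSO libraries A, B and C. Every AVJ16 library lay above every DMSO library, D highest, and the DMSO libraries lay close together. ITGA6 was 1.52-fold higher in AVJ16 (log2 fold change 0.61, SE 0.17, 95% confidence interval 0.23 to 0.99, adjusted p = 0.0420). The spread was unequal, with a coefficient of variation of 25.9% in AVJ16 and 1.14% in DMSO. Without D the log2 fold change was 0.39 (adjusted p = 0.00306), so D raised both the size of the difference and its error.

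The call of ITGA6 rested on the libraries in the fit. Leaving out A, B, C or F ended it, with adjusted p of 0.0967 to 0.141, while the log2 fold change stayed between 0.39 and 0.77 whichever library was left out. It was also lost with scaling by library size alone, where the log2 fold change was 0.49 (adjusted p = 0.0608). The median log2 fold change over all genes was -0.12 with that scaling, and 19.2% of all calls were then higher in AVJ16, against 40.1% with TMM.

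ITGA3 (chromosome 17, 50055968 to 50090481, plus strand), the other main laminin-binding alpha chain of epithelia and a partner of ITGB1, had 910, 795 and 859 CPM in AVJ16, against 893, 1037 and 851 CPM in DMSO. The groups overlapped throughout, and D was hardly set apart from E and F for this gene (log2 ratio of D to the mean of E and F 0.14). The log2 fold change was -0.12 (SE 0.11, 95% confidence interval -0.37 to 0.14, adjusted p = 0.531), and -0.16 (adjusted p = 0.174) without D. The ratio of ITGA6 to ITGA3 in CPM per kb of exon length was 1.17, 0.804 and 0.920 in AVJ16, against 0.603, 0.527 and 0.647 in DMSO. The groups did not overlap in this ratio, and ITGA6 exceeded ITGA3 in library D but in no other library. Per kb of coding sequence ITGA6 stayed below ITGA3 in all 6 libraries, at 0.752 of it in D.

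The collagen receptors ITGA1 and ITGA2, both partners of ITGB1 and neighbours on chromosome 5, were low in all libraries. ITGA1 (52787916 to 52959209, plus strand), which prefers basement membrane collagen, had 13.0, 8.27 and 8.68 CPM in AVJ16, against 13.9, 12.1 and 14.1 CPM in DMSO (log2 fold change -0.42, SE 0.18, adjusted p = 0.151). ITGA2 (52989340 to 53094779, plus strand), which prefers fibrillar collagen, had 17.2, 9.81 and 12.3 CPM in AVJ16, against 14.9, 15.01 and 16.5 CPM in DMSO (log2 fold change -0.25, SE 0.19, adjusted p = 0.425). In both genes E and F lay below every DMSO library and D lay among or above them. Without D both were called lower in AVJ16, ITGA1 at -0.65 (adjusted p = 0.000482) and ITGA2 at -0.48 (adjusted p = 0.00469), and 37.2% of all genes tested were called in that fit. PELO overlaps 2.69% of the exon length of ITGA1 on the same strand. It had 21.2, 29.0 and 30.5 CPM in AVJ16, against 26.6, 25.5 and 23.5 CPM in DMSO. ITGA2-AS1, which is not in the count table, overlaps 7.47% on the opposite strand. The effect of these overlaps on the ITGA1 counts was not tested.

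Among the receptors for fibronectin, vitronectin and other ligands with an Arg-Gly-Asp motif, ITGAV differed and ITGA5 did not pass the test. ITGAV (ENSG00000138448, chromosome 2, 186590010 to 186680901, plus strand), which pairs with ITGB1, ITGB3, ITGB5 and other beta chains and takes part in the activation of latent TGF-beta, had 54.8, 34.2 and 40.6 CPM in AVJ16, against 72.0, 61.0 and 82.6 CPM in DMSO. Every AVJ16 library lay below every DMSO library, with D nearest to them. ITGAV stood at 0.601 of its DMSO level (log2 fold change -0.73, SE 0.18, 95% confidence interval -1.14 to -0.32, adjusted p = 0.0284). Without D the log2 fold change was -0.94 (adjusted p = 9.42e-05), whereas without A, B, C, E or F it was -0.84 to -0.59 and the adjusted p was 0.0552 to 0.126. The call therefore also rested on the libraries in the fit, while the direction was the same in each of them.

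ITGA5 (chromosome 12, 54395261 to 54419266, minus strand), the classical fibronectin receptor chain that pairs with ITGB1, had 70.4, 93.6 and 98.4 CPM in AVJ16, against 88.1, 83.7 and 79.1 CPM in DMSO. D lay below every DMSO library and E and F above every one. The log2 fold change was 0.07 (SE 0.13, 95% confidence interval -0.24 to 0.37, adjusted p = 0.783), and it was -0.04 with scaling by library size alone and 0.20 (adjusted p = 0.0588) without D.

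ITGA4 (chromosome 2, 181457202 to 181538940, plus strand), the alpha chain that binds VCAM1 and an alternatively spliced segment of fibronectin and is best known from leukocytes, had 91.8, 70.4 and 80.2 CPM in AVJ16, against 65.9, 56.9 and 67.4 CPM in DMSO. The groups did not overlap, yet ITGA4 did not pass (log2 fold change 0.35, SE 0.12, adjusted p = 0.0929). Without D it was called at 0.25 (adjusted p = 0.0458). CERKL on the opposite strand overlaps 26.4% of the exon length of ITGA4 in GENCODE 44. CERKL had 1.55, 0.914 and 1.41 CPM in AVJ16, against 2.20, 1.43 and 1.51 CPM in DMSO, a counted level far below that of ITGA4. The sources do not state whether reads were counted by strand, and the effect of the overlap on the ITGA4 counts was not tested.

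The beta chains did not pass the test. ITGB1 (ENSG00000150093, chromosome 10, 32887273 to 33005792, minus strand), the shared partner of most alpha chains, had 1042, 607 and 703 CPM in AVJ16, against 598, 593 and 652 CPM in DMSO. D alone lay far above the others, and E and F fell on both sides of DMSO library C. The log2 fold change was 0.35 (SE 0.18, 95% confidence interval -0.06 to 0.77, adjusted p = 0.230), and it was 0.09 (adjusted p = 0.427) without D, so the size of this difference came largely with that library. ITGB1-DT, a divergent transcript whose exons overlap those of ITGB1 on the opposite strand over 2.75% of its exon length, had 1.23, 1.41 and 1.34 CPM in AVJ16, against 0.642, 0.765 and 0.586 CPM in DMSO. It was called higher (log2 fold change 0.98, adjusted p = 0.0238) on 40 counts at most in a library, and this call did not hold in DESeq2 or when any library but D was left out.

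ITGB5 (chromosome 3, 124761948 to 124901418, minus strand), a partner of ITGAV in vitronectin binding, had 105, 118 and 127 CPM in AVJ16, against 143, 139 and 135 CPM in DMSO. Every AVJ16 library lay below every DMSO library, but the difference was small (log2 fold change -0.25, SE 0.10, adjusted p = 0.129, and -0.18 without D, adjusted p = 0.0753). ITGB3 (chromosome 17, 47253827 to 47313743, plus strand), the other vitronectin and fibrinogen receptor chain that pairs with ITGAV, had 5.25, 3.32 and 4.22 CPM in AVJ16, against 4.40, 3.36 and 3.51 CPM in DMSO. It had 72 to 126 counts per library and did not pass (log2 fold change 0.18, 95% confidence interval -0.28 to 0.64, adjusted p = 0.586), with a log2 fold change of 0.02 without D. A same-strand transcript, ENSG00000259753, overlaps 33.2% of the exon length of ITGB3.

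**Figure D2:**
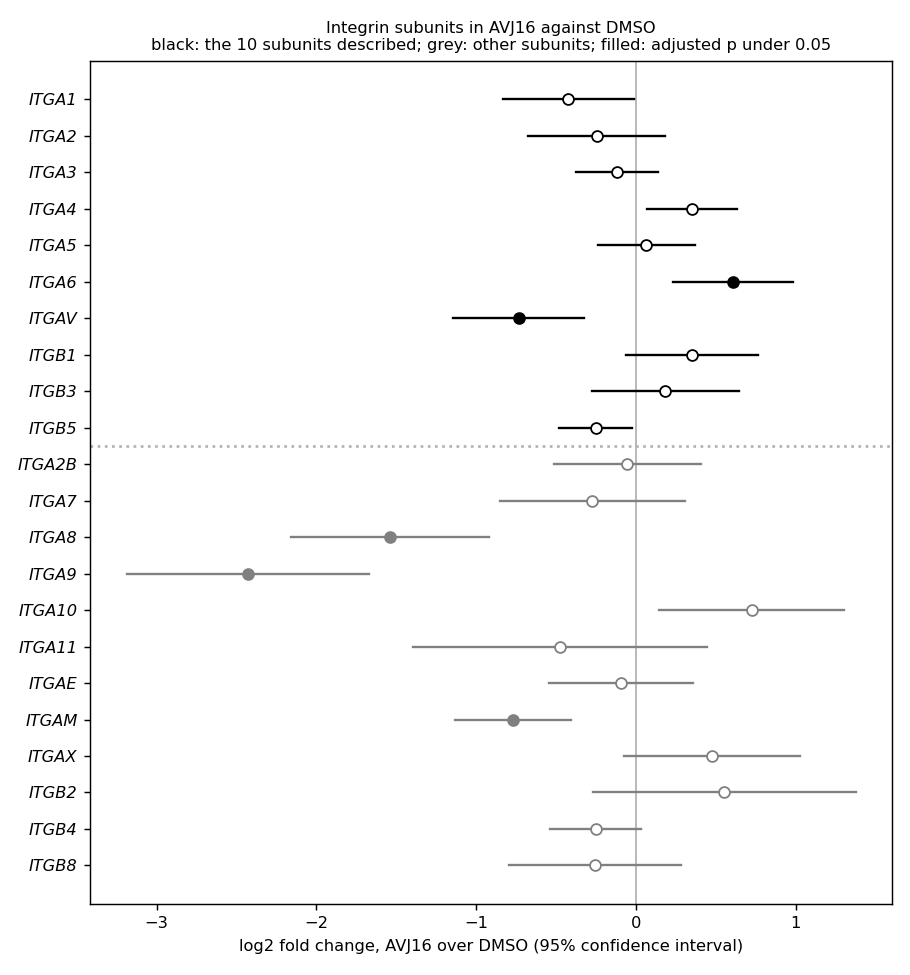
Log2 fold change of AVJ16 over DMSO with its 95% confidence interval for the 10 members (black) and the 12 other integrin subunits tested (grey), filled where the adjusted p of edgeR's quasi-likelihood test was under 0.05. ITGA6 at 0.61 and ITGAV at -0.73 were called among the members, and ITGA8, ITGA9 and ITGAM were called lower among the others.

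Length-scaled levels place the members on 1 scale. In CPM per kb of exon length, AVJ16 libraries averaged 87.2 for ITGA3, 84.8 for ITGA6, 53.9 for ITGB1, 17.9 for ITGB5, 11.8 for ITGA5 and 7.59 for ITGA4. The remaining members averaged 2.23 for ITGAV, 1.66 for ITGA2, 0.625 for ITGB3 and 0.538 for ITGA1 in AVJ16. Neighbours in this order whose ranges overlapped in AVJ16 were ITGA3 with ITGA6, ITGA6 with ITGB1, ITGAV with ITGA2, and ITGB3 with ITGA1.

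In DMSO the same levels averaged 94.6 for ITGA3, 55.6 for ITGA6, 42.2 for ITGB1, 21.3 for ITGB5, 11.3 for ITGA5 and 5.95 for ITGA4. ITGAV averaged 3.72, ITGA2 1.96, ITGA1 0.720 and ITGB3 0.550 in DMSO, and no neighbours overlapped there. The order of several members depended on the length used. Per kb of coding sequence ITGAV had 22.9, 19.4 and 26.3 CPM in A, B and C, above ITGA4 at 21.3, 18.4 and 21.8 CPM. On that scale ITGB1 had 421, 245 and 284 CPM in D, E and F, against 284, 248 and 269 CPM for ITGA3. ITGA1 also lay above ITGB3 in every AVJ16 library there. The order of ITGA6 and ITGB1 turned as well. Per kb of exon the ratio of ITGA6 to ITGB1 was 1.52 to 1.67 in AVJ16 and 1.25 to 1.37 in DMSO, and per kb of coding sequence it was 0.508 to 0.559 in AVJ16 and 0.420 to 0.458 in DMSO. ITGB1 has a union of exons of 14561 bases and a coding sequence of 2475 bases, against 6679 and 3390 bases for ITGA6.

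Alpha and beta partners were then set side by side in each library, since only paired chains reach the surface. In 4 of the 9 known pairs among the members, both chains had a fold change of the same sign. The ratio of ITGAV to ITGB1 was lower in AVJ16 by a mean of 1.07 on the log2 scale, with values of -1.14, -1.04 and -1.01 in D, E and F relative to the DMSO mean, against 0.05, -0.18 and 0.12 in A, B and C. The ratio of ITGAV to ITGB3 was lower by 0.92. Neither ratio overlapped between the groups, and in neither was D far from E and F.

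The ratio of ITGAV to ITGB5, by contrast, overlapped between the groups. It was 0.03, -0.83 and -0.69 in D, E and F relative to the DMSO mean, a mean difference of -0.50 on the log2 scale. Per kb of exon, ITGAV over the sum of ITGB3 and ITGB5 was 0.168, 0.0949 and 0.104 in AVJ16, against 0.165, 0.145 and 0.201 in DMSO. E and F lay below every DMSO library and D among them.

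For ITGA6 the ratio to ITGB1 was higher in AVJ16 by a mean of 0.26 on the log2 scale, with values of 0.20, 0.24 and 0.34 in D, E and F relative to the DMSO mean, against 0.02, 0.05 and -0.07 in A, B and C. The groups did not overlap. The ratio to ITGB1 was lower by 0.76 for ITGA1 and by 0.59 for ITGA2, and neither overlapped between the groups. For ITGA3, ITGA4 and ITGA5 the ratios to ITGB1 overlapped, with mean differences of -0.43, 0.03 and -0.26. In all, the ratio did not overlap between the groups for 4 of the 7 alpha chains paired with ITGB1, where 34.6% of all genes had a ratio to ITGB1 that did not overlap.

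**Figure D3:**
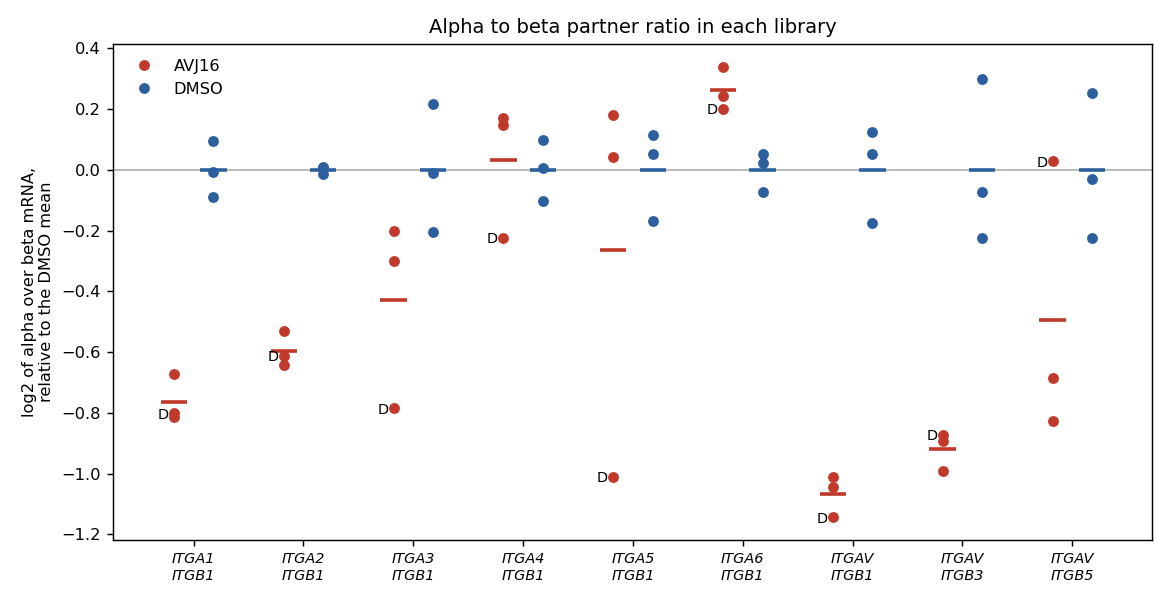
Log2 ratio of alpha to beta chain mRNA in each library for 9 known pairs, relative to the mean of the DMSO libraries, with AVJ16 (red) left of DMSO (blue) in each pair. Points are libraries, lines are group means, and library D is lettered. D sits with E and F for ITGA1, ITGA2, ITGA6 and ITGAV over ITGB1, and apart from them for ITGA3, ITGA4 and ITGA5 over ITGB1 and for ITGAV over ITGB5.

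A set of the subunits was higher together in library D. It was the highest AVJ16 library for 8 members and the lowest for 2, ITGA5 and ITGB5, while over all genes tested D was highest for 43.4% and lowest for 43.1%. The median distance of D from the mean of E and F was 0.51 on the log2 scale for the members, against 0.32 for all genes tested. D exceeded that mean by 0.67 for ITGB1, 0.64 for ITGA2, 0.61 for ITGA1, 0.57 for ITGA6, 0.55 for ITGAV and 0.48 for ITGB3. Their log2 ratios to ITGB1 had an SD within AVJ16 of 0.058 for ITGA2, 0.069 for ITGAV, 0.071 for ITGA6 and 0.078 for ITGA1, and of 0.126 for ITGB3. Of all genes, 1.53% to 2.67% had an SD as small or smaller than the first 4, and 6.26% than ITGB3. The SD was 0.222 for ITGA4, 0.313 for ITGA3, 0.523 for ITGB5 and 0.651 for ITGA5. This measure was chosen after the values were seen and describes 3 libraries. The share of mitochondrial mRNA also set D apart, and its part in these shifts was not tested.

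Within the alpha chains the composition shifted towards ITGA6, and slightly towards ITGA4. In CPM per kb of exon, ITGA6 made up 48.2%, 38.6% and 41.7% of the 7 alpha chains in AVJ16, against 32.2%, 30.3% and 33.6% in DMSO. ITGA3 made up 41.2%, 48.0% and 45.4% in AVJ16, against 53.4%, 57.5% and 51.9% in DMSO. ITGAV made up 1.26%, 1.05% and 1.08% in AVJ16, against 2.18%, 1.71% and 2.56% in DMSO. The groups did not overlap in any of these shares. The same held for ITGA1, at 0.242% to 0.311% in AVJ16 against 0.355% to 0.455% in DMSO. It also held for ITGA2, at 0.735% to 0.966% in AVJ16 against 1.03% to 1.25% in DMSO. ITGA4 was just higher, at 3.83% to 3.91% in AVJ16 against 2.902% to 3.79% in DMSO. Only the ITGA5 share overlapped between the groups per kb of exon. Per kb of coding sequence the ITGA2 share overlapped too, at 0.841% in AVJ16 library D against 0.836% in DMSO library B. The shares sum to a whole and so are not independent of each other. How often shares of this kind separate was not tested.

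Among the beta chains, ITGB1 made up 80.9%, 69.1% and 70.6% in AVJ16, against 64.5%, 65.1% and 67.8% in DMSO. The summed level of the 7 alpha chains over that of ITGB1 was 3.15, 4.05 and 4.002 in AVJ16, against 4.15, 4.52 and 3.73 in DMSO. The groups overlapped in this ratio of total alpha chain to ITGB1 mRNA, with D the lowest of all libraries. They did not overlap in the ITGB1 share, where D stood far above E and F.

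**Figure D4:**
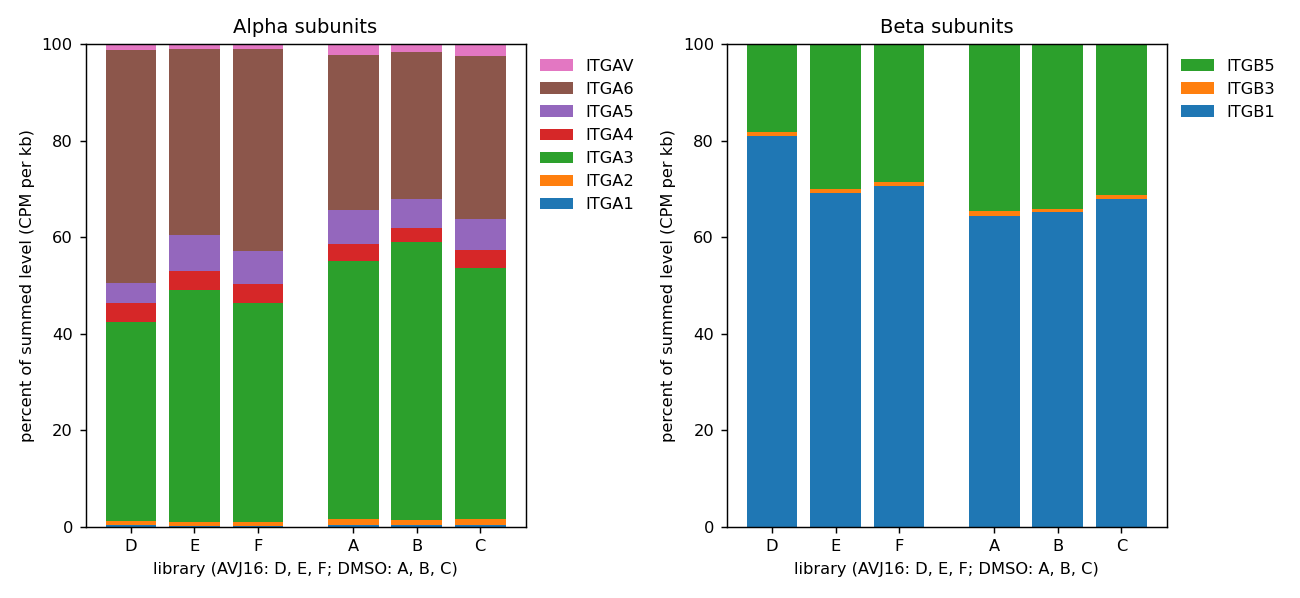
Share of each subunit in the summed level of the 7 alpha chains (left) and the 3 beta chains (right), in percent of CPM per kb of exon length, with a stacked bar per library, AVJ16 libraries D, E and F left of DMSO libraries A, B and C. ITGA6 takes 38.6% to 48.2% of the alpha chains in AVJ16 against 30.3% to 33.6% in DMSO.

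Of the other integrin subunits, 12 passed the count filter, of which none was called higher and 3 were called lower by edgeR in AVJ16, where 5.79% of all genes tested were called higher and 8.66% lower. An unadjusted p under 0.05 was reached by 1 alpha subunit that was higher, ITGA10, which DESeq2 and voom called but edgeR did not. ITGA9, a receptor chain for tenascin and VCAM1, had 0.274, 0.125 and 0.268 CPM in AVJ16, against 1.38, 1.03 and 1.32 CPM in DMSO (log2 fold change -2.43, adjusted p = 0.00313, at most 31 counts in a library). ITGA8, an RGD-binding chain known for nephronectin in kidney development, had 1.64, 1.37 and 0.704 CPM in AVJ16, against 3.39, 3.73 and 3.47 CPM in DMSO (log2 fold change -1.54, adjusted p = 0.00807). Both partner with ITGB1. Per kb of exon ITGA8 averaged 0.169 CPM in AVJ16 and 0.482 CPM in DMSO, where ITGB3, the lowest member there, averaged 0.550 CPM. ITGAM, a myeloid subunit, had 2.88, 2.99 and 3.12 CPM in AVJ16, against 5.96, 4.69 and 4.73 CPM in DMSO (log2 fold change -0.77, adjusted p = 0.0149), and this call did not hold when A, C or F was left out (highest adjusted p = 0.0914).

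ITGA10, a further collagen receptor chain and partner of ITGB1, had 9.96, 20.4 and 21.4 CPM in AVJ16, against 11.1, 9.38 and 10.9 CPM in DMSO. E and F stood far above DMSO and D among its libraries, and ITGA10 did not pass (log2 fold change 0.73, adjusted p = 0.0913). Without D it was called higher at 1.00 (adjusted p = 5.42e-06). ITGB4, the second beta partner of ITGA6 and the chain of hemidesmosomes, had 64.9, 53.2 and 53.1 CPM in AVJ16, against 62.7, 76.6 and 64.4 CPM in DMSO (log2 fold change -0.25, adjusted p = 0.211). With all libraries neither ITGB4 nor ITGB1 passed, and without D ITGB4 was called lower at -0.36 (adjusted p = 0.00811). The call was also made by voom with sample weights, which called 43.7% of all genes tested, where the fit without D called 37.2%.

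Of the genes whose proteins bind integrin tails or link them to actin, 6 of 42 were called, a share near the 14.4% of all genes. Among the 15 tested activators and inhibitors of integrin tails reported here, 3 were lower and 12 did not pass, with a median log2 fold change of -0.07. TLN2, a talin that activates integrins, was lower at -0.65 (adjusted p = 0.00526), and so were the tensins TNS3 at -0.86 (adjusted p = 0.00218) and TNS1 at -1.33 (adjusted p = 0.0155), which bind the beta tail. TNS1 was low throughout, with 8, 18 and 16 counts in D, E and F, against 28, 43 and 30 in A, B and C. Among 27 focal adhesion adaptors and kinases, ACTN1 and ACTN4, which cross-link actin, were higher at 0.43 (adjusted p = 0.0190) and 0.40 (adjusted p = 0.0488), PARVB, a partner of integrin-linked kinase, was lower at -0.41 (adjusted p = 0.0435), and the other 24 did not pass. The calls of TNS1, ACTN1, ACTN4 and PARVB were each lost when A, C or F was left out, with adjusted p of up to 0.0698 for TNS1, 0.113 for ACTN1, 0.205 for ACTN4 and 0.151 for PARVB, whereas those of TLN2 and TNS3 held under all alternatives tried. ACTN1 and ACTN4 were also not called with scaling by library size alone (adjusted p = 0.0544 and 0.123), nor ACTN4 with upper quartile scaling or no filter and PARVB with no filter (adjusted p = 0.0506, 0.0525 and 0.0570). ACTN4 and PARVB were not called without B or E, and TNS1 was not called without B (adjusted p = 0.0663). Without D, where 37.2% of all genes tested were called, 1 of the tail genes was higher and 6 were lower, and 6 of the focal adhesion genes were higher and 2 lower.

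Among 12 membrane proteins that associate with integrins, PLAUR, the urokinase receptor, was higher at 0.52 (adjusted p = 0.0380) and NRP1, a co-receptor that also binds integrins, was lower at -1.11 (adjusted p = 0.00191). Of these 12, 1 was thus called higher and 1 lower, where 5.79% of all genes tested were called higher and 8.66% lower. The call of PLAUR held when D was left out but not when any other library was (highest adjusted p = 0.156) or with scaling by library size alone. Without D, where 37.2% of all genes tested were called, 5 of these membrane proteins were higher and 2 lower. None of 21 tested genes of integrin traffic passed in edgeR, where 0 had an unadjusted p under 0.05, and DESeq2 called 0. Voom with sample weights called 5 of them, and 43.7% of all genes tested. The nearest in edgeR was ARF6, a GTPase of integrin recycling, at 0.23 (adjusted p = 0.184). In the fit without D, with its 37.2% of all genes called, 2 traffic genes were called higher and 2 lower.

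The ligands of these receptors are read against all genes tested, of which 5.79% were called higher and 8.66% lower. Among 12 tested collagen chains, 7 were lower and 1 was higher, with a median log2 fold change of -1.05. Each chain counts equally in this median. The 13 listed chains summed to 395 to 436 CPM in AVJ16, against 497 to 576 CPM in DMSO. The basement membrane chains COL4A2 and COL4A1, ligands of the ITGA1 and ITGA2 receptors, were lower at -1.57 (adjusted p = 0.000744) and -1.47 (adjusted p = 0.00168). Among 11 laminin chains, ligands of the ITGA3 and ITGA6 receptors, 4 were lower and none was higher in edgeR, DESeq2 or voom or had a higher level at an unadjusted p under 0.05, with a median of -0.15. These were the alpha chains LAMA4 at -1.69, LAMA1 at -1.55, LAMA2 at -0.79 and LAMA3 at -0.77. The call of LAMA2 did not hold when A, B, C or F was left out (highest adjusted p = 0.0829). That of LAMA3 did not hold when A, C or F was left out (highest adjusted p = 0.0728). In DMSO, LAMA4, LAMA1, LAMA2 and LAMA3 averaged 13.9, 13.7, 13.6 and 16.4 CPM. The 11 laminin chains summed to 842 to 935 CPM in AVJ16 and 924 to 1016 CPM in DMSO, ranges that overlapped. Without D, where 37.2% of all genes tested were called, 8 collagen chains were lower and 1 was higher, and 6 laminin chains were lower and 0 higher.

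Among 21 tested ligands of the RGD-binding and ITGA4 receptors, 3 were higher and 6 were lower, with a median of -0.12. Without D, where 37.2% of all genes tested were called, 5 of these ligands were higher and 7 lower. CCN1, a matricellular ligand of ITGAV receptors, had 619, 1001 and 1032 CPM in AVJ16, against 459, 461 and 417 CPM in DMSO (log2 fold change 0.99, adjusted p = 0.00951, and 0.0538 without C). LTBP1, which holds latent TGF-beta in the matrix, was lower at -1.47 (adjusted p = 0.000819), and EDIL3 and FBN2 were lower at -1.69 and -0.74. FN1, fibronectin itself and chosen for mention after its values were seen, averaged 23.3 ± 4.35 CPM in AVJ16 and 37.3 ± 1.05 CPM in DMSO (SD, n = 3 each), with a log2 fold change of -0.68 (adjusted p = 0.0154). Whether the FN1 call held with a library left out or with other scalings is not given here.

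**Figure D5:**
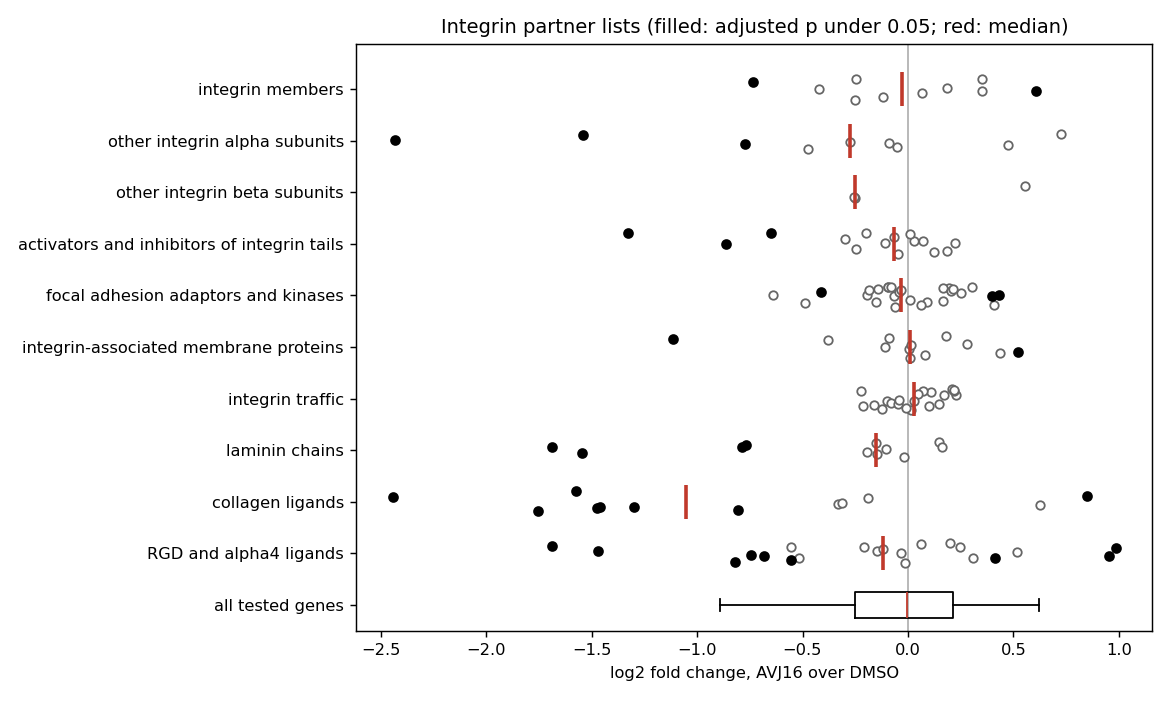
Log2 fold change of AVJ16 over DMSO for the members and for each list of integrin partners and ligands, with a point per tested gene, filled where the adjusted p of edgeR's quasi-likelihood test was under 0.05, and a red line at the median. The box spans the quartiles and the whiskers the middle of all tested genes from the 5th to the 95th percentile. The members sit around a median of -0.03, and the collagen list has a median of -1.05.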

How the data were processed

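Poly(A) RNA of 3 AVJ16 and 3 DMSO samples was sequenced as single-end reads from stranded libraries. Per the labels and methods, the authors trimmed reads with cutadapt 2.10, aligned them to GRCh38 with TopHat2 2.1.1, counted them per gene with HTSeq 2.01 and used DESeq2 1.36.0, and the deposited values used here are raw counts. Whether reads were counted by strand is not stated in the sources used here. A further 6 columns of normalised values were not used. Columns A to F carry no replicate number, and their groups were read from the condition bar of the study's heat map. The smallest sum over libraries was 10, so low genes had already been removed.

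Counts were filtered with filterByExpr (minimum count 10, minimum total 15), scaled by TMM and tested in edgeR 4.0.16 with R 4.3.3 and limma 3.58.1, using its quasi-likelihood F test (two-sided, robust dispersion) and Benjamini-Hochberg adjustment over all genes, with a threshold of 0.05. The SE was the log2 fold change over the square root of F. The script was tested on simulated data. Exon and coding lengths came from GENCODE 44. Alternatives were other scalings, no filter, DESeq2 1.42.0, voom with sample weights, the study's thresholds (adjusted p 0.1, log2 fold change beyond 0.5), leaving out each library and, chosen after seeing the data, no robust dispersion. The members and lists were chosen with earlier results of these data known. A gene of the list of tail activators and inhibitors is not reported here and was left out of its counts. Named genes were all members, other tested integrin subunits, up to 4 genes per list with the smallest p, IGF2BP1 and genes whose exons overlap a member.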

Additional observations from a re-analysis of the deposited data

How the results depend on the processing

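The calls of ITGA6 and ITGAV held with DESeq2's size factors, upper quartile scaling, no filter, no robust dispersion, DESeq2 and the study's thresholds. With scaling by library size alone, 1 member was called and 0 higher, with 522 genes higher and 2196 lower. With voom sample weights, 6 members (2 higher, 4 lower), 61 genes of the partner lists and 7136 genes (3399 higher, 3737 lower) were called, against 2, 32 and 2359 in edgeR. Leaving out each library gave 0 to 5 members called (0 to 2 higher, 0 to 3 lower) and 17 to 58 genes of the partner lists. Over all genes, 782 to 6247 were called (222 to 2960 higher, 514 to 3287 lower), with the most without D. The groups did not overlap for 4 to 7 members, again with the most without D. The share over all genes was not computed with a library left out, so these counts cannot be set against the 37.1% found with all libraries. The causes were not tested.

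The sign turned for ITGA5 with library size alone (-0.040) and without F (-0.0100, of a range up to 0.20 over the libraries left out), and for ITGB3 with voom (-0.042). It also turned for ITGAE (0.093 with voom, 0.12 without D), ITGA2B (0.082 with voom, 0.12 without D), PELO (-0.0074 with library size alone) and AC078883.1 (-0.074 with library size alone, -0.05 without B, -0.15 without E, of a range up to 0.22). None of these was called in edgeR with all libraries. Over 55 named genes and 715 alternative values, 621 kept direction and side of the threshold, 28 gained a call, 55 lost it and 11 turned. The summed alpha to ITGB1 ratio differed by -0.15 on the log2 scale, -0.23 per coding kb and -0.22 to -0.03 with a library left out. The ITGAV to ITGB3 plus ITGB5 ratio differed by -0.51, and by -0.76 to -0.35 with a library left out. No paired analysis was possible because the columns carry no replicate numbers. With 3 libraries a group and D apart, the differences of ITGB1, ITGA4 and ITGB5 were not resolved in edgeR with all libraries. ITGA4 was called without D (edgeR adjusted p = 0.0458). ITGA4 and ITGB5 were called by voom with sample weights (adjusted p = 0.0199 and 0.0299), which called 43.7% of all genes tested.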
